A study of Mus musculus with 5 samples.

Results

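The Wnt ligands, their Frizzled receptors and co-receptors, and the secreted antagonists that bind either side were followed through 4 kinds of mouse cell. The genes were picked by symbol, and the list was chosen with earlier results of these data known. The non-control probes whose symbol named a Wnt, a Frizzled (Fzd), Lrp5, Lrp6, Ror1, Ror2, an Sfrp, a Dkk or Wif1 were taken. This gave 42 genes on 50 probes, out of 21983 named genes on an array of 55681 probes: 19 Wnt ligands, 10 Frizzled receptors, 4 co-receptors and 9 antagonists. The samples were chemically induced neural progenitor cells (ciNPC) at passage 5 (1 array) and passage 13 (2 arrays), brain-derived neural progenitor cells (NPC, 1 array) and mouse embryonic fibroblasts (MEF, 1 array). The induced cells come from a study that converts cells with chemical cocktails and low oxygen, and the arrays served to compare ciNPC with both other cell types. All were primary cells, and strain, sex, animal age and the composition of the cocktail for these samples are not given in the sources used here.

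A Wnt is a secreted, lipid-modified glycoprotein that binds a Frizzled receptor on a neighbouring cell. With Lrp5 or Lrp6 as co-receptor, the bound Frizzled stabilises beta-catenin, which enters the nucleus and works with TCF and LEF factors, while Ror1 and Ror2 serve routes that do not need beta-catenin. Sfrp proteins and Wif1 bind the ligand, and most Dkk proteins bind the co-receptor. In the embryonic brain the pathway is known for patterning the dorsal neural tube and for holding progenitors in the cycle. In fibroblasts and other mesenchymal cells it is known for roles in skeletal and connective tissue.

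RNA was hybridised to single-colour 60-mer arrays, and the authors' scanner software gave an intensity per spot. A level below is log2 of that intensity minus the array's 75th percentile, so 0 is the 75th percentile of the array, and levels of different probes cannot be ranked against each other. Between 47.9% and 57.6% of non-control spots were well above background, and none was saturated. The 3 ciNPC arrays were on 1 slide, and NPC and MEF on another, so slide and cell type cannot be told apart in any comparison of ciNPC with NPC or MEF. Nothing in the labels says that the passage 13 arrays were separate cultures, and the median gene differed by 0.15 (log2) between them. The p-values of ciNPC against NPC or MEF rest on the spread of the 3 ciNPC arrays over both passages. Those between passages rest on the passage 13 pair, which may be technical. In both, limma draws the variance of a gene toward a trend over all genes tested on the same arrays. A p-value thus does not rest on that gene's own spread alone. Each single array (NPC, MEF and, between passages, passage 5) is assumed to vary to the same extent. In RNA from bulk cells, fewer cells of a type and less RNA per cell cannot be told apart.

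Neural progenitor markers, such as Sox2, Nes and Pax6, were well above background for 10 of 10 genes on every ciNPC array and on NPC. On MEF 5 of 10 were, Nes among them. The log2 of their summed signal was 8.275 at passage 5, 8.59 and 8.42 at passage 13, 8.81 in NPC and 4.22 in MEF. Msi1 did not separate the cell types, at -1.06, -0.21 and -0.67 in ciNPC, -0.52 in NPC and -0.72 in MEF. Fibroblast markers, such as Col1a1, Thy1 and Prrx1, were above background for 10 of 10 on every ciNPC array, 5 of 10 on NPC and 10 of 10 on MEF. The log2 of their summed signal was 7.85 at passage 5, 7.52 and 7.39 at passage 13, 1.62 in NPC and 10.69 in MEF.

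In ciNPC, the ligands Wnt7a and Wnt7b, the receptors Fzd9 and Fzd10 and the antagonist Sfrp2 were higher than in MEF. The ligands Wnt5a, Wnt5b and Wnt9a, the receptors Fzd2, Fzd5 and Fzd6 and the antagonists Dkk2, Dkk3 and Sfrp1 were lower. Against NPC, 4 genes were higher in ciNPC, namely Dkk2, Dkk3, Wnt4 and Wnt9a, and none was lower. A gene was called at an adjusted p under 0.05 (limma, Benjamini-Hochberg over all 16229 genes tested) and at least 2-fold. The 32 member genes tested had a probe that was well above background throughout 1 or more of the sample groups (ciNPC at either passage, NPC, MEF), and 20 of the 42 were above background on all 5 arrays. Of the 32, 5 (15.6%) were higher and 9 (28.1%) were lower in ciNPC than in MEF, where 15.3% of all genes tested were higher and 15.3% lower. Their median difference was -0.999 on the log2 scale, against -0.09 over all genes tested. A gene that entered the test only through the cell type where it was bright was more likely to differ. These counts therefore describe the list and no more. Against NPC, 4 of the 32 (12.5%) were higher in ciNPC, where 4.79% of all genes tested were, and 0 were lower, where 0.0863% were (4.88% in either direction). At an unadjusted p under 0.05 and with no size limit, 11 of the 32 members and 18.1% of all genes tested differed from NPC. The median difference from NPC was 0.31 for the members and -0.14 for all genes.

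**Figure D1:**
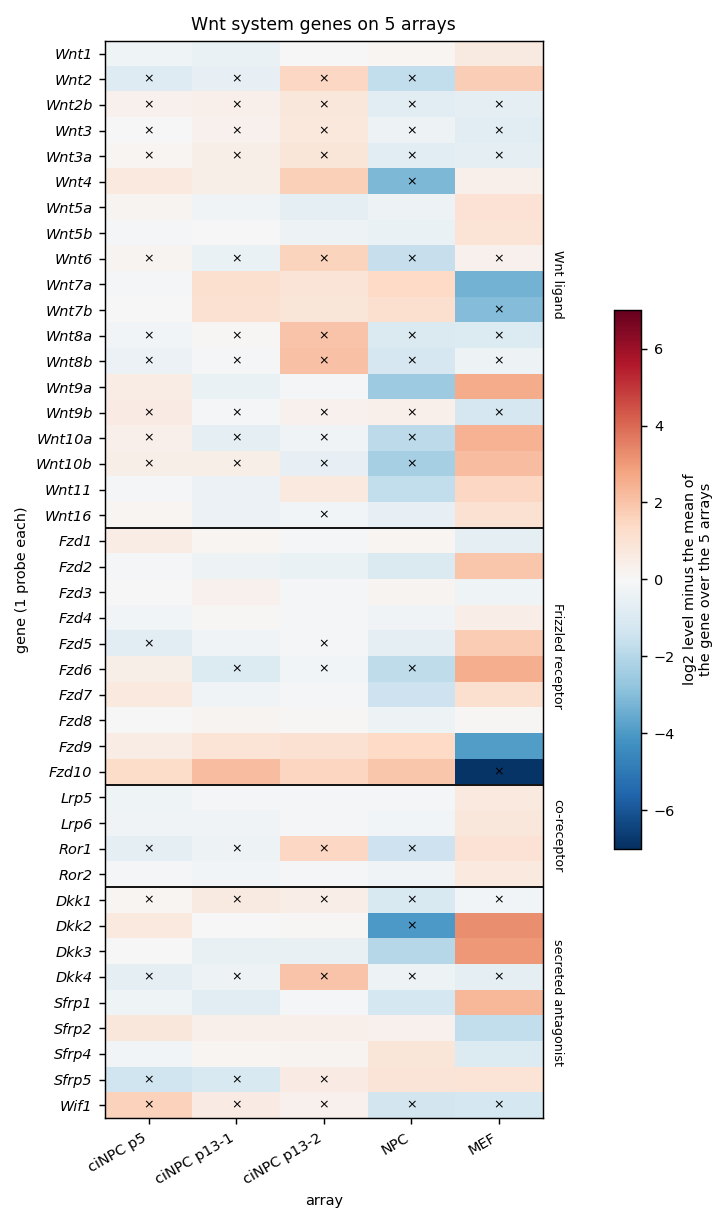
Levels of all 42 genes on the 5 arrays, in columns for ciNPC passage 5, ciNPC passage 13 (2 arrays), NPC and MEF, with rows grouped by role. Colour gives the log2 level minus the mean of the gene over the 5 arrays, and a cross marks a probe that was not well above background. Fzd9, Fzd10, Wnt7a and Wnt7b are lowest in MEF, Dkk2, Dkk3 and Wnt9a are highest there and lowest in NPC, and 10 genes carry a cross in every column.

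Among the ligands, Wnt7a and Wnt7b, related Wnts that are expressed in the developing brain and act there on blood vessels and progenitors, were higher in ciNPC than in MEF. Wnt7a had levels of -0.99 at passage 5, 0.28 and 0.06 at passage 13, 0.55 in NPC and -4.14 in MEF. Every ciNPC array lay above MEF and below NPC, and the passage 5 array was the lowest of the 3. The difference of ciNPC from MEF was 3.93 (SE 0.49, adjusted p = 0.000876), and 2.15 with the normexp background correction, whose offset draws dim values together by construction. From NPC it was -0.77 and did not pass (95% interval -1.94 to 0.41).

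Wnt7b had levels of -2.38 at passage 5, -1.34 and -1.56 at passage 13, -1.25 in NPC and -5.43 in MEF, where it was not well above background. All 3 ciNPC arrays were above MEF and below NPC, as for Wnt7a. Where a group was dim, the fold is a lower bound against the faintest signal well above background on that group's arrays. On that footing Wnt7b was higher in ciNPC than in MEF by at least 5.79-fold on the processed signal (adjusted p = 0.00148). With normexp the difference was 1.39 on the log2 scale, smaller than that bound. The difference from NPC was -0.51 and did not pass (95% interval -1.76 to 0.73).

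The probe of Wnt7a lies at chr6:91314653-91314712 and that of Wnt7b at chr15:85366896-85366955, both on mm9. Promoters of some of the genes called between ciNPC and MEF or NPC are shown so that their base composition can be seen beside the levels. No letters are in capitals unless stated. Promoter sequences are those of RefSeq on GRCm38.p6 and run from 250 bases before to 50 bases after the start, and 28 of the 42 genes had one, with 31 windows in all. Wnt7a (chr6:91411304-91411603, minus strand) has 42 CpG dinucleotides in its 300 bases.
Wnt7a: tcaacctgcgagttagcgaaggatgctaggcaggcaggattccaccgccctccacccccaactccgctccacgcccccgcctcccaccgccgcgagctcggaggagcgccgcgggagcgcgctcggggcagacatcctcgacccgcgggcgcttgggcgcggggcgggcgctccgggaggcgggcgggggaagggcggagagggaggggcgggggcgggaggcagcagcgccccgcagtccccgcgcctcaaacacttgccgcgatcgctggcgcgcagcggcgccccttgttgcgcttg

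Wnt5a and Wnt5b, ligands known for signalling through Ror2 and other routes that do not need beta-catenin, moved the other way. Wnt5a had levels of 2.29 at passage 5, 1.85 and 1.49 at passage 13, 1.753 in NPC and 3.10 in MEF. The 3 ciNPC arrays enclosed the NPC value and lay below MEF. The difference from MEF was -1.23 (SE 0.29, adjusted p = 0.0124), and without an intensity trend in the variance model the adjusted p was 0.0801. Wnt5b had levels of -0.10 at passage 5, -0.02 and -0.33 at passage 13, -0.42 in NPC and 0.99 in MEF. Again every ciNPC array was below MEF, with a difference of -1.14 (SE 0.22, adjusted p = 0.00505).

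Wnt9a, a ligand known for its part in joint formation, was highest in MEF and intermediate in ciNPC. Its levels were -1.10 at passage 5, -2.09 and -1.79 at passage 13, -4.14 in NPC and 0.99 in MEF. No array of one cell type overlapped another. The difference of ciNPC was 2.48 from NPC (SE 0.44, adjusted p = 0.0225) and -2.66 from MEF (SE 0.44, adjusted p = 0.00285). The call against NPC was lost with quantile normalization (adjusted p = 0.238) and without the intensity trend (adjusted p = 0.141), and with normexp the difference from NPC was 1.42. The promoter of Wnt9a (chr11:59306680-59306979, plus strand) has 58 CpG dinucleotides, the most among the promoters printed here.
Wnt9a: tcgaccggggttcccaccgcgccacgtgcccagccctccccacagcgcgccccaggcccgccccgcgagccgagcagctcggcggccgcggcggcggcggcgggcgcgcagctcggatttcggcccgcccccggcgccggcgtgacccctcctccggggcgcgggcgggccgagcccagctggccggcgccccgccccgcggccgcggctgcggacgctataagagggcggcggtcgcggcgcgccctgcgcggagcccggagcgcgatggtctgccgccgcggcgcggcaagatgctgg

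Wnt4, a ligand needed for kidney tubule formation, was lowest in NPC. It had levels of -2.81 at passage 5, -3.09 and -1.84 at passage 13, -6.65 in NPC, not well above background, and -3.16 in MEF. The ciNPC arrays were all above both NPC and MEF, the lowest of them close to MEF. Against NPC the gene was higher in ciNPC by at least 3.42-fold (adjusted p = 0.0235), a call lost with a different background correction (normexp, difference 1.45, adjusted p = 0.107), with quantile normalization (0.0514) and without the intensity trend (0.0842). Against MEF the difference was 0.58 and did not pass.

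Wnt11, a ligand known for guiding cell movements, had levels of -2.53 at passage 5, -2.88 and -1.77 at passage 13, -4.17 in NPC and -1.01 in MEF. All ciNPC arrays lay between NPC and MEF, but their own range was over 1 log2 unit, and neither the difference from NPC of 1.78 (adjusted p = 0.150) nor that from MEF of -1.38 (adjusted p = 0.0753) passed. Wnt10b, known for holding back fat cell formation, had levels of -3.74 at passage 5, -3.77 and -4.76 at passage 13, -6.50 in NPC and -2.01 in MEF. Of these 5 arrays MEF alone was well above background. Against MEF it did not pass in ciNPC (adjusted p = 0.0903), and NPC was at least 5.06-fold lower than MEF, with no test since each is 1 array.

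Of the other ligands, Wnt1, the midbrain organiser ligand, was above background on all 5 arrays through one of its probes (-0.61, -0.77 and -0.32 in ciNPC, -0.18 in NPC and 0.32 in MEF) and on none through the other. Wnt16, through its brighter probe, was above background on 2 of the 3 ciNPC arrays, in NPC and in MEF. Wnt2 and Wnt10a were above background in MEF alone. None of these 4 was called in the fit as described. Against MEF, Wnt16 was called with the mean of its probes (adjusted p = 0.0407) and without the intensity trend (0.0413), Wnt10a without the trend (0.0262) and Wnt2 with quantile normalization and with the deposited table (0.0424 each), all lower in ciNPC. Wnt2b, Wnt3, Wnt3a, Wnt6, Wnt8a, Wnt8b and Wnt9b, together with the antagonists Dkk1, Dkk4 and Wif1, were above background on no array. Among them are Wnt3a, the ligand most used to activate beta-catenin in culture, and Dkk1, a direct target of beta-catenin. The median level of these 10 genes was -5.61 at passage 5, -5.47 and -4.92 at passage 13, -6.55 in NPC and -6.42 in MEF. Such values have no order, and a low probe signal does not show that a transcript is absent.

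Fzd10 and Fzd9 gave the largest differences of the receptors between ciNPC and MEF. Fzd10, a receptor expressed in the dorsal neural tube, had levels of 1.60 at passage 5, 2.48 and 1.85 at passage 13, 2.28 in NPC and -6.55 in MEF, where it was not well above background. The ciNPC range held the NPC value. Fzd10 was higher in ciNPC than in MEF by at least 77.2-fold on the processed signal (adjusted p = 1.20e-05), and NPC was at least 94.9-fold higher than MEF. With normexp the ciNPC difference was 5.00 on the log2 scale, also smaller than its bound. From NPC ciNPC differed by -0.30 (95% interval -1.11 to 0.51).

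Fzd9, a receptor found in neural precursor cells, had levels of 2.33 at passage 5, 2.76 and 2.88 at passage 13, 3.21 in NPC and -2.07 in MEF. The 3 ciNPC arrays were above MEF, and all were below NPC. The difference from MEF was 4.73 (SE 0.23, 26.6-fold, adjusted p = 2.61e-05). That from NPC was -0.55 (95% interval -1.10 to -0.005) and did not pass after adjustment. The probe of Fzd10 lies at chr5:129109798-129109857 and that of Fzd9 at chr5:135724815-135724874 on mm9. Their promoters (GRCm38.p6, chr5:128600856-128601155, plus strand, for Fzd10, and chr5:135250998-135251297, minus strand, for Fzd9) have 45 and 53 CpG dinucleotides.
Fzd10: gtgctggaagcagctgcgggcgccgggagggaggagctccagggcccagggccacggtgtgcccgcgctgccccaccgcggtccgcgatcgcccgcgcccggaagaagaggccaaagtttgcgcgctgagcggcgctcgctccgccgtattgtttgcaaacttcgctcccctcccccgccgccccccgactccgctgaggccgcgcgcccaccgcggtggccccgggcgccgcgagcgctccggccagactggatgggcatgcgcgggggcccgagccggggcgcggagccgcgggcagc
Fzd9: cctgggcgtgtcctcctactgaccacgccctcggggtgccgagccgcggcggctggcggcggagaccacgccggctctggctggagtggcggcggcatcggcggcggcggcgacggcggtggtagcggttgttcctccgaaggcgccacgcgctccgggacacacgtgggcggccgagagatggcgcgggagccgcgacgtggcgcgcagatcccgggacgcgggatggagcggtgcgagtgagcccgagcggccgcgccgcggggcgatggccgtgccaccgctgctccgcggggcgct

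Fzd2 and Fzd7, close relatives expressed widely in mesenchyme, were both brightest in MEF. Fzd2 had levels of 2.33 at passage 5, 2.16 and 2.03 at passage 13, 1.48 in NPC and 4.43 in MEF. Every ciNPC array lay between NPC and MEF, nearer to NPC. The difference from MEF was -2.26 (SE 0.16, adjusted p = 8.79e-05), and -1.41 through the other Fzd2 probe. That from NPC was 0.69 (adjusted p = 0.0658).

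Fzd7 had levels of 0.37 at passage 5, -0.51 and -0.41 at passage 13, -1.74 in NPC and 0.85 in MEF. Here too the ciNPC arrays lay between the other cell types without overlap, with passage 5 nearer to MEF. Neither the difference from NPC of 1.56 (adjusted p = 0.0749) nor that from MEF of -1.04 (adjusted p = 0.0567) passed. With any 1 ciNPC array left out, the difference of Fzd7 from NPC was 1.28 to 1.72. Against MEF, Fzd7 was called lower with the mean of its probes (-1.59, adjusted p = 0.0122). It was also called among probes above background on all 5 arrays (adjusted p = 0.0425). Its other probe gave 1.09 from NPC and -2.15 from MEF.

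The brighter Fzd2 probe and the dimmer Fzd7 probe are shown because they resemble each other: over 50 aligned bases 42 are identical (84.0%), and the next most alike pair among all member probes shares 61.8%. Bases alike in both are in capitals. Whether RNA of one gene bound the other's probe was not tested. The Fzd2 probe lies at chr11:102467613-102467672 and the Fzd7 probe at chr1:59541367-59541426, both on the plus strand of mm9.
Fzd2: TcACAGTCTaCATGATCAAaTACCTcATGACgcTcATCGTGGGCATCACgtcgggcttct
Fzd7: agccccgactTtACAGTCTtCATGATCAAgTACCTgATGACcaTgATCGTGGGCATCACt

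Fzd6 and Fzd5 were lower in ciNPC than in MEF, with dim arrays among the ciNPC values of both. Fzd6, a receptor known for aligning cells in epithelia, had levels of -3.37 at passage 5, -4.77 and -4.02 at passage 13, -5.58 in NPC and -1.26 in MEF. It was above background at passage 5 and in MEF, and not on the passage 13 or NPC arrays. The measured difference of ciNPC from MEF was -2.79 (SE 0.81, adjusted p = 0.0273). With the dim passage 13 arrays raised to their faintest signal well above background, Fzd6 was at least 3.68-fold lower in ciNPC, and with normexp the difference was -1.49. The call was lost with quantile normalization (adjusted p = 0.0608) and without passage 13 replicate 1 (0.0728). Fzd5, known for its part in eye development, had levels of -3.61 at passage 5, -3.12 and -3.001 at passage 13, -3.58 in NPC and -1.08 in MEF. Through this probe 1 of the 3 ciNPC arrays was above background, and through the other probe both passage 13 arrays were. The difference from MEF was -2.16 (SE 0.51, adjusted p = 0.0124, or -1.25 with normexp) through this probe and -0.65 through the other, and their mean did not pass (adjusted p = 0.0764).

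The other receptors did not reach both limits in the fit as described. Fzd1 differed from MEF by 0.86 (adjusted p = 0.0289) and Fzd4 by -0.53 (adjusted p = 0.0492), both under 2-fold. With quantile normalization Fzd1 passed against MEF (1.001, adjusted p = 0.0313). Fzd3, the receptor for axon tracts, differed by 0.34 and Fzd8 by 0.00, and neither passed. Against NPC these 4 differed by -0.14 to 0.42. Among all 10 receptors, 2 were higher and 3 lower in ciNPC than in MEF, where 15.3% of all genes tested were called in each direction, and 0 of 10 were called against NPC, where 4.88% of all were.

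**Figure D2:**
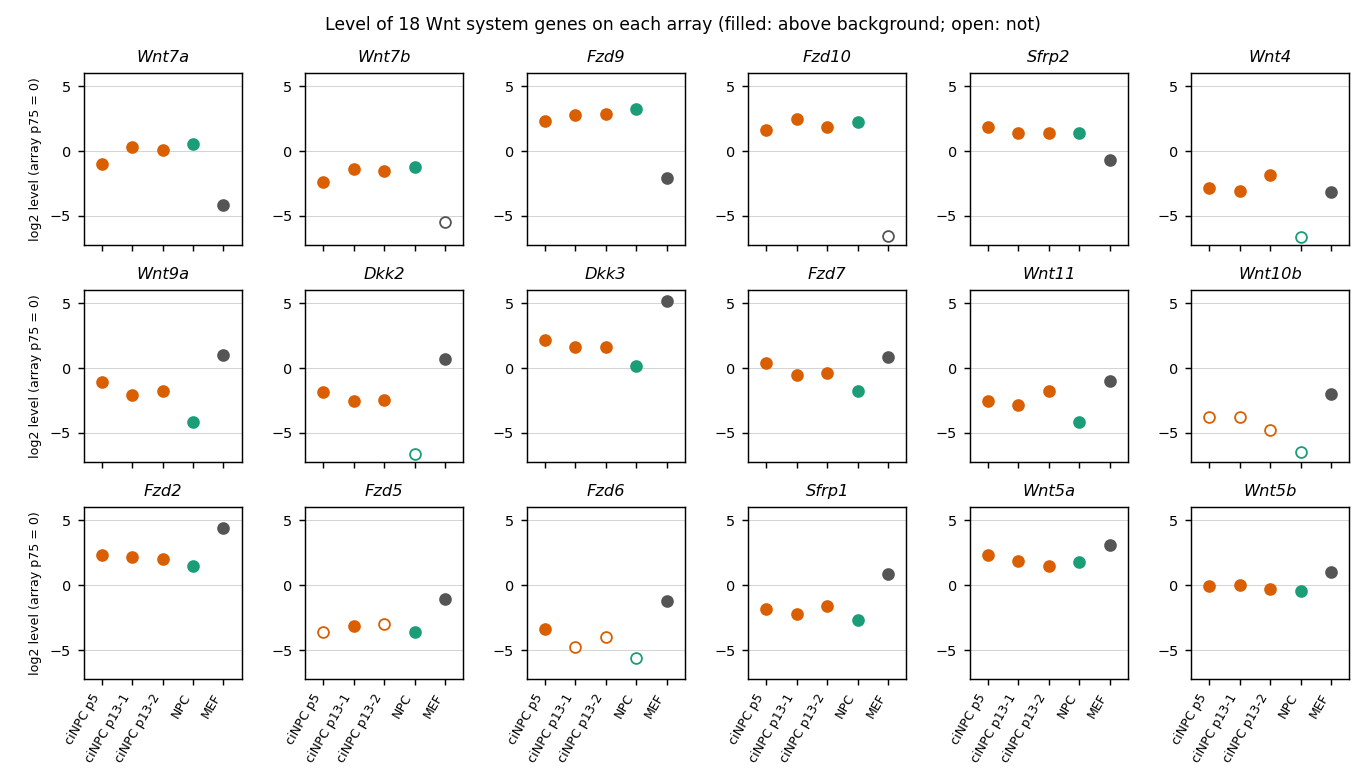
Log2 level (0 is the 75th percentile of the array) on each of the 5 arrays for the 18 member genes that were called in a test or lay at least 4-fold apart between NPC and MEF, from ciNPC passage 5 and passage 13 to NPC and MEF. Filled points were well above background and open points were not. Fzd10 is near 2 on the ciNPC and NPC arrays and open at -6.55 in MEF, and Dkk2 is open at -6.58 in NPC.

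No co-receptor was called in any comparison in the fit as described. Lrp6 had levels of 2.90 at passage 5, 2.90 and 3.01 at passage 13, 2.91 in NPC and 3.90 in MEF. The 3 ciNPC arrays stood around NPC and below MEF. Its difference from MEF was -0.96 (SE 0.13, adjusted p = 0.00111), short of 2-fold, and from NPC 0.03 (95% interval -0.28 to 0.33). With normexp the difference from MEF was -1.02 (adjusted p = 0.000616) and passed. Lrp5 differed from MEF by -0.84 (adjusted p = 0.00566) and Ror2 by -0.85 (adjusted p = 0.00241), also under 2-fold. From NPC the intervals were -0.46 to 0.32 for Lrp5 and -0.20 to 0.44 for Ror2. Ror1 was above background in MEF alone.

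Among the antagonists, Sfrp2 was higher in ciNPC than in MEF, and Dkk2, Dkk3 and Sfrp1 were lower. Sfrp2, which binds Wnts through a domain like that of Frizzled, had levels of 1.89 at passage 5, 1.42 and 1.42 at passage 13, 1.37 in NPC and -0.65 in MEF. All ciNPC arrays were above MEF and above NPC. The difference from MEF was 2.23 (SE 0.23, adjusted p = 0.000408) and that from NPC 0.21 (95% interval -0.35 to 0.76). Sfrp1, a relative that binds Wnts in the same way, had levels of -1.80 at passage 5, -2.20 and -1.60 at passage 13, -2.71 in NPC and 0.86 in MEF. Its ciNPC arrays were all below MEF and above NPC. The difference from MEF was -2.73 (SE 0.35, adjusted p = 0.000925). From NPC it differed by 0.84 (adjusted p = 0.271).

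Dkk3, a divergent Dickkopf not known to act through the Lrp co-receptors, had levels of 2.18 at passage 5, 1.66 and 1.66 at passage 13, 0.17 in NPC and 5.21 in MEF. The ciNPC arrays lay between NPC and MEF with no overlap. Dkk3 was higher than in NPC by 1.67 (SE 0.23, adjusted p = 0.00752) and lower than in MEF, with a difference of -3.37 (SE 0.23, adjusted p = 8.55e-05). The NPC call was lost without the intensity trend (adjusted p = 0.128).

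Dkk2, which binds Lrp5 and Lrp6, had levels of -1.84 at passage 5, -2.52 and -2.47 at passage 13, -6.58 in NPC, not well above background, and 0.69 in MEF. Again the 3 ciNPC arrays were apart from both other cell types. Dkk2 was higher than in NPC by at least 4.21-fold on the processed signal (adjusted p = 0.00233, or 0.108 with quantile normalization). With normexp the difference from NPC was 1.91 on the log2 scale, below that bound. Against MEF it differed by -2.96 (SE 0.48, adjusted p = 0.00255), and NPC was at least 32.8-fold lower than MEF. The promoter of Dkk2 (chr3:132085042-132085341, plus strand, GRCm38.p6) has 11 CpG dinucleotides, fewer than any of the other promoters printed, and holds TATAAA, in capitals.
Dkk2: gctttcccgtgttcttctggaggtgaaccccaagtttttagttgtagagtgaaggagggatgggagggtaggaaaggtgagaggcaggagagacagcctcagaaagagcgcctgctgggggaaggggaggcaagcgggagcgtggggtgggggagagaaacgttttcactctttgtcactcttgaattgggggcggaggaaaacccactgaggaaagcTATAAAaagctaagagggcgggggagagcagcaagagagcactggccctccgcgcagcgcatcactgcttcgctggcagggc

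Over all member promoters the median GC content was 66.7% against 52.7% of all 32851 RefSeq promoter windows, and the median number of CpG dinucleotides was 26 against 7. The TCF and LEF core CTTTGA, searched on both strands, was present in 5 of 31 member windows (16.1%) and in 16.0% of all windows. TATAAA, searched likewise, was present in 5 of 31 (16.1%) and in 13.6% of all windows. Sfrp4 differed from MEF by 0.97 (adjusted p = 0.0128), under 2-fold, and from NPC by -0.81 (adjusted p = 0.128). Sfrp5 was above background on no ciNPC array but in NPC and in MEF, and passed in neither comparison in the fit as described. Against MEF it was called lower with quantile normalization (-2.42, adjusted p = 0.0330) and with the deposited table (0.0330).

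**Figure D3:**
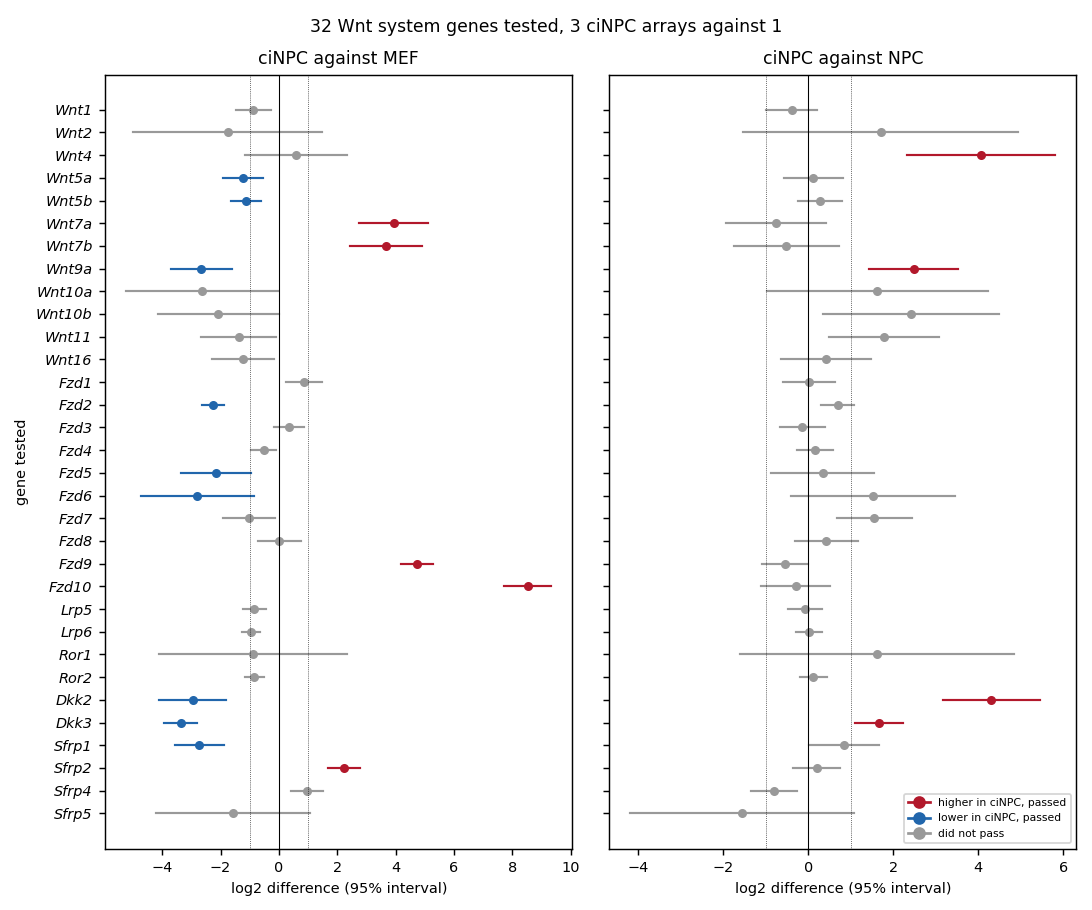
Log2 difference with its 95% interval for the 32 genes tested, ciNPC minus MEF on the left and ciNPC minus NPC on the right, with genes coloured by whether they were called. On the left the calls reach from Dkk3 at -3.37 to Fzd10 at 8.52, the last against a dim MEF value, and on the right the 4 calls (Dkk2, Dkk3, Wnt4 and Wnt9a) are all above 0.

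The 4 genes higher in ciNPC than in NPC were above background in MEF as well, and for 3 of them (Dkk2, Dkk3 and Wnt9a) MEF was the brightest cell type. The fibroblast markers stood in the same order, with a summed log2 signal of 7.39 to 7.85 in ciNPC, 1.62 in NPC and 10.69 in MEF, and the part of remaining fibroblast RNA in these differences was not tested. For all 778 genes called higher in ciNPC than in NPC, how many were brightest in MEF is not given here. The count of 4 was 1 with quantile normalization, with the authors' deposited value table and without the intensity trend. Dkk3 alone stayed called in the case of quantile normalization, and Dkk2 alone without the trend.

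Between NPC and MEF, with 1 array each and no test, 5 of the 32 genes (15.6%) were at least 4-fold higher in NPC and 10 (31.2%) at least 4-fold lower, against 8.01% and 10.1% of all genes tested. With normexp these counts were 3 and 6. Genes such as Wnt10b entered through MEF alone, where they were bright. These counts too therefore describe the list and no more. The 5 were Fzd9, Fzd10, Wnt7a, Wnt7b and Sfrp2, and the 10 were Dkk2, Dkk3, Sfrp1, Wnt9a, Wnt10b, Wnt11, Fzd2, Fzd5, Fzd6 and Fzd7. For these 15 the place of each ciNPC array was computed on a scale with NPC at 1 and MEF at 0. The genes higher in NPC had mean positions of 0.83 for Wnt7b, 0.84 for Wnt7a, 0.90 for Fzd9, 0.96 for Fzd10 and 1.101 for Sfrp2. Of the genes lower in NPC, those above background on all ciNPC arrays had means of 0.40 for Fzd7, 0.44 for Wnt11, 0.52 for Wnt9a, 0.59 for Dkk2, 0.67 for Dkk3, 0.76 for Sfrp1 and 0.77 for Fzd2. Fzd5, Fzd6 and Wnt10b had ciNPC arrays that were not, and these were raised to their faintest signal well above background. Their means were 0.84 for Fzd5, 0.61 for Fzd6 and 0.51 for Wnt10b. That of Fzd5 lay among those of the genes higher in NPC. Where one end was not well above background it was set to its array's faintest signal well above background. The positions of Wnt7b and Fzd10 (dim in MEF) are therefore lower limits, and that of Dkk2 (dim in NPC) is an upper limit. The positions are a description of these arrays, with no test, and rest on the 15 genes of the processed signal.

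**Figure D4:**
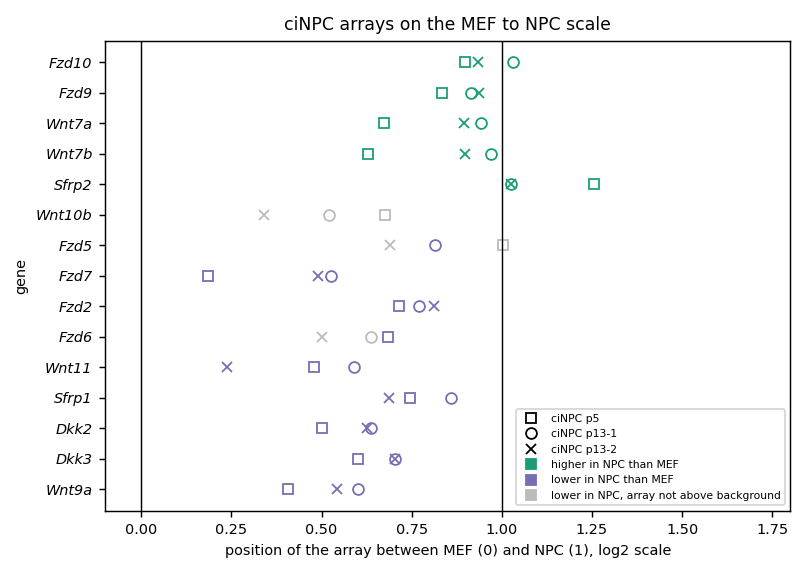
Position of each ciNPC array between MEF (0) and NPC (1) on the log2 scale for the 15 genes at least 4-fold apart between NPC and MEF. Squares are passage 5, circles and crosses the passage 13 arrays, and grey points were not well above background. The dim end of Wnt7b, Fzd10, Dkk2, Fzd6 and Wnt10b is set to a floor. The 5 genes higher in NPC stand between 0.63 and 1.25, and Fzd7, Wnt11, Wnt9a and Dkk2 reach further left, from 0.19 for Fzd7 at passage 5.

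Between passages, Wnt7a was the only member gene called. It was higher at passage 13 than at passage 5 by 1.16 (SE 0.24, adjusted p = 0.0204), 1 of 32 genes (3.12%) against 0.425% of all genes tested. With normexp the difference was 0.99, just under 2-fold, and with quantile normalization the adjusted p was 0.141. This fit has 1 residual degree of freedom among samples. An adjusted p under 0.05 with no size limit was reached by 6 of the 32 members and by 974 of all 16229 genes tested (6.0%). Besides Wnt7a these were 5 genes at less than 2-fold: Fzd9 differed by 0.49 (adjusted p = 0.0348), Dkk3 by -0.52 (0.0186), Fzd1 by -0.53 (0.0360), Wnt5a by -0.62 (0.0322) and Fzd7 by -0.83 (0.0319). Wnt7b differed by 0.92 and did not pass (adjusted p = 0.262). Through the other Fzd7 probe, dim on both passage 13 arrays, the difference was -0.03.

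Of 68 other genes of the pathway, 62 could be tested, and 8 (12.9%) were higher and 17 (27.4%) lower in ciNPC than in MEF, against 15.3% each way of all genes tested. Their median was -0.41, against -0.09 over all genes. Norrin (Ndp), which is no Wnt but activates Fzd4, was at least 29.5-fold higher (adjusted p = 1.93e-05), with levels of 0.31, 0.72 and 0.75 in ciNPC, 1.19 in NPC and -5.31, not well above background, in MEF. Celsr1, a cadherin of planar cell polarity, was at least 23.8-fold higher (adjusted p = 2.83e-05), and Tle4, a co-repressor bound by TCF factors, at least 12.5-fold (adjusted p = 0.000100). Sostdc1, an antagonist that binds Lrp6, was also called (adjusted p = 0.0238), but with levels of -2.28 at passage 5, -3.64 and -3.29 at passage 13, -4.55 in NPC and -6.14 in MEF it was above background at passage 5 alone, so no fold is given. The other 4 higher genes, Celsr2, Apc, Axin2 and Tcf7, are named after their values were seen. Axin2 was at least 2.84-fold higher (adjusted p = 0.0124), with levels of -3.27, -2.79 and -2.31 in ciNPC, -2.74 in NPC and -5.48, not well above background, in MEF. Among the 17 genes called lower were Notum (-1.11), Nkd2 (-1.31), Lgr5 (-1.93) and Lef1 (-2.64). Notum, Nkd2 and Lgr5 are likewise named after their values were seen, and the activity of beta-catenin was not tested.

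Lower in ciNPC than in MEF were the R-spondins Rspo2 and Rspo3, secreted proteins that keep Frizzled on the cell surface, called at adjusted p = 0.00207 and 0.000262. Rspo2 was not above background on either passage 13 array and, with these raised to their faintest signal well above background, was at least 13.2-fold lower. Rspo3 differed by -3.67 (SE 0.34). The glypican Gpc4 was lower, at -3.36 (SE 0.33, adjusted p = 0.000352) and the transcription factor Lef1 at -2.64 (SE 0.26, adjusted p = 0.000363). Against NPC, 5 of the 62 (8.06%) were higher and 0 lower, against 4.79% and 0.0863% of all genes tested, and their median was -0.15 against -0.14 over all genes. Without passage 13 replicate 2, 9 were called (8 higher and 1 lower), and with quantile normalization 3. The 5 in the fit as described were the glypicans Gpc3 (3.70, SE 0.28, adjusted p = 0.000383) and Gpc4 (2.57, SE 0.33, adjusted p = 0.00514), Rspo3 (at least 8.0-fold, adjusted p = 0.00102), Prickle1, a planar polarity gene (1.98, SE 0.26, adjusted p = 0.00535), and Tpbg, a membrane inhibitor of Wnt signalling (1.85, SE 0.29, adjusted p = 0.0126), which is named after its value was seen. Rspo3 had levels of -1.02, -1.65 and -1.39 in ciNPC, -5.00 in NPC, not well above background, and 2.32 in MEF. All 5 were brighter in MEF than in NPC, as were Dkk2, Dkk3, Wnt4 and Wnt9a. The share among all genes called higher in ciNPC than in NPC is not given here.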

How the data were processed

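Total RNA of 5 samples was labelled with Cy3 and hybridised to 1 Agilent array each. Spots were extracted with Agilent Feature Extraction 10.7.1.1, per the submitters' processing notes. The deposited array files hold a processed intensity per spot, background-subtracted per the file headers and not scaled between arrays, and the design is annotated on mm9. The authors' deposited value table holds log2 values and was used as an alternative, since the array files were available. It correlated with each array's own log2 intensity at 0.995 to 0.999.

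From these files the log2 intensity minus the array's 75th percentile was computed, outlier spots were left out, and the spots of a probe were averaged. Probes were named through their accession (26582) or symbol (3094) in a RefSeq gene table (GRCm38.p6, names and promoters only), and 26005 stayed unnamed. The probe with the highest mean stood for a gene. A gene was tested if its probe passed the software's background test on all arrays of any of the 4 groups, with each passage as a group.

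Differences were fitted with limma 3.58.1 in R 4.3.3 (lmFit, eBayes with an intensity trend, all 5 arrays). MEF, NPC and ciNPC formed 3 groups (2 residual degrees of freedom), and the passages were split in a fit with 1. The fit was tested on simulated data. The number of arrays limits the precision. NPC and MEF had no test between them, and a 4-fold limit was used there, with dim values raised to the array's lowest signal well above background.

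Every member gene was named, with all 5 values where it passed or lay at least 4-fold apart between NPC and MEF. Of the pathway list, at most the 4 of largest difference in a direction and comparison were to be named. Celsr2, Apc, Axin2, Tcf7, Tpbg, Notum, Nkd2 and, against MEF, Lgr5 were added after their values were seen. Members and lists were chosen with earlier results of these data known. Alternatives covered background correction (normexp, offset 50), scaling, the deposited table, the filter on dim probes, the probe rule, the variance trend and leaving out each ciNPC array. Protein sequences were not used here.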

Additional observations from a re-analysis of the deposited data

Results flagged for a closer look

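Of the member and other pathway genes, 2 differed between passages at an adjusted p under 0.05 and by at least 2-fold. Others passed at less than 2-fold, such as Dvl3 (0.74, limma adjusted p = 0.00348). The same MEF array stands in both differences below, so the test compares passage 13 with passage 5 alone. For Lgr5 no alternative setting of this comparison was recorded. Wnt7a stood 4.31 (log2) above MEF at passage 13 and 3.15 above it at passage 5, a difference of 1.16 (SE 0.24, limma adjusted p = 0.0204). Lgr5, a receptor for R-spondins and one of the 68 other pathway genes, differed from MEF by -2.29 at passage 13 and by -1.22 at passage 5, a difference of -1.08 (SE 0.27, limma adjusted p = 0.0446), where 0.210% of all genes tested were lower. Its levels were -0.95 at passage 5, -1.95 and -2.09 at passage 13, -1.51 in NPC and 0.27 in MEF. Passage 5 is 1 array in both cases, so its own spread was not measured.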

How the results depend on the processing

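For member genes called in the fit as described, no difference changed its direction under the alternatives run. For the others only settings in which they were called were compared, so changes of direction elsewhere were not looked for. Through its 2 probes Wnt1 differed from MEF by -0.89 and by 1.15, the second dim on every array. Of the single-gene values recomputed for genes called in the fit as described, 180 still passed and 18 no longer passed. Among genes not called there, 29 values newly passed, and values that stayed uncalled were not counted. Against NPC, the member genes called numbered 1 with quantile normalization, 1 with the deposited table, 1 without the intensity trend and 2 among probes above background on all 5 arrays, against 4 as reported, all of them higher. The other pathway genes called against NPC numbered 3 in the first 3 of these settings, against 5. Higher member genes against MEF numbered 3 among probes above background on all 5 arrays, against 5, and higher pathway genes numbered 3 there and 5 with normexp, against 8. Filtering on all 5 arrays removes genes that are dim in one cell type by its construction. Between passages, 0 member genes were called with normexp, quantile normalization or the deposited table, against 1. NPC and MEF were 4-fold apart for 9 members (3 higher and 6 lower in NPC) with normexp and among probes above background everywhere, against 15. The cause of the changes under the other settings was not tested.

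With 1 ciNPC array left out, the members called against MEF numbered 13 to 21 (5 to 6 higher and 8 to 15 lower), and the 15 came without passage 13 replicate 2. Members called against NPC numbered 5 to 6, all higher. Other pathway genes called numbered 25 to 27 against MEF (8 to 11 higher, 16 to 19 lower) and 6 to 9 against NPC (6 to 8 higher, 0 to 1 lower). Fits with an array left out have fewer residual degrees of freedom, and the variance model is estimated anew in each. Counts above those of the full fit therefore do not show that a call is more secure. Scaling on probes detected on all 5 arrays moved the median of all genes against MEF to 0.04, against -0.09. Slide as a block could not be fitted, since ciNPC shares no slide with NPC or MEF. The passage comparison has no leave-one-out test, as no residual degrees of freedom are left. No paired analysis was possible because only the passage 13 group has numbered replicates. Dim probes limit the faint ligands to bounds.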

Other observations

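Several Wnt genes lie side by side in the mouse genome, and the levels of such neighbours can be set beside each other from the probe positions on mm9. On chromosome 15 the Wnt10b probe lies 21.9 kb from the Wnt1 probe that was above background on all 5 arrays, and Wnt10b was so in MEF alone. The other Wnt1 probe, 21.0 kb away, was above background on none. Wnt3a and Wnt9a probes are 85.3 kb apart on chromosome 11, and Wnt9a was above background on all 5 arrays while Wnt3a was on none. Wnt6 and Wnt10a probes are 19.1 kb apart on chromosome 1, where Wnt10a was above background in MEF and Wnt6 on no array. Wnt9b and Wnt3, 90.1 kb apart on chromosome 11, were above background on none. In the 3 pairs with a gene above background, detection thus differed between neighbours on at least 1 array, given as values with no test.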
